A study of Mus musculus with 9 samples.

Results

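The 35 genes described here encode the enzymes of glycolysis and of the pentose phosphate pathway, the proteins that pass pyruvate into mitochondria or hold it back, 1 enzyme of gluconeogenesis and 4 genes of the response to low oxygen. They were taken as a list of symbols and looked up in the deposited tables of 24054 genes, where all 35 were found. Of these, 34 were among the 14452 genes that reached an average of at least 1 read over the 9 libraries and were tested. The remaining gene, Fbp1, had no read in any library.

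mRNA was sequenced from type 2 dendritic cells (DC2), antigen-presenting cells of the spleen. All mice were C57BL/6 with the genotype Clec9a-Cre/Cre Rosa-tdTomato/tdTomato, so every group carried Cre in both copies of Clec9a, the gene of the receptor DNGR-1. Cre is made in DC progenitors that express Clec9a and switches on the red protein tdTomato (TOM) for good, so that TOM marks a history of Clec9a expression and not a cell type. The sort took viable single cells with MHCII, CD11c and CD11b and little autofluorescence, and TOM set apart the TOM+ cDC2 from the TOM- DC2. The 3 groups were TOM+ cDC2 from mice at postnatal day 8 (3 libraries), TOM- DC2 from mice at postnatal day 8 (3 libraries) and TOM+ cDC2 from adult mice of 9, 8 and 8 weeks (3 libraries). Young spleens were pooled ahead of the sort, and there was no adult TOM- group. The libraries of a group are described as biological replicates, but how many mice stand behind each is not given in the sources used here, and the p-values measure the spread between these libraries only.

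Glycolysis turns glucose into pyruvate and yields ATP without oxygen, and lactate dehydrogenase turns pyruvate into lactate to recover NAD+. The pentose phosphate pathway branches off after the first step and supplies NADPH and the ribose of nucleotides. In dendritic cells glycolysis is known to increase when the cells are activated, and HIF-1, the transcription factor stabilized at low oxygen, is known to drive many glycolytic genes.

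Reads counted on genes numbered 12783252 to 22809401 per library. Of the defining markers of the sorted cells, Itgax (CD11c) was at 301 to 463 TPM (the share of transcripts, scaled to a fixed total per library). Zbtb46, a transcription factor of conventional DCs, was at 112 to 159 TPM in the 9 libraries. The cDC2 markers as a list differed with age, as given below. Cd3e of T cells reached at most 1.74 TPM. Summed levels were 0.72 to 7.79 TPM for 7 T and NK cell markers, 106 to 181 TPM for 7 B cell markers and 219 to 326 TPM for 7 monocyte markers. For 8 macrophage markers they were 325 to 356 TPM in young TOM+ cDC2, 414 to 460 TPM in young TOM- DC2 and 255 to 312 TPM in adults. Whether this RNA came from other cells was not tested. TOM- DC2 replicate 1 stood apart in red cell markers, with a summed level of 1219 TPM over 9 genes against 80.6 to 157 TPM in the other young libraries and 23.2 to 30.8 TPM in adults, and in neutrophil markers, with 38.5 TPM over 8 genes against at most 1.99 TPM elsewhere. Without this library, 15 of the 16 members that passed between young TOM- DC2 and adults still did, Egln1 being the exception. TPM values are shares of a library, and Cd74 and H2-Ab1 took more of it in adults (63199 and 28827 TPM on average) than in young TOM+ cDC2 (44852 and 16830.3 TPM). The counts were therefore compared after TMM scaling, which put the median log2FC of all genes tested at 0.05 (young TOM+ cDC2 against adult) and 0.07 (young TOM- DC2 against adult). Without TMM factors this median shifted by 0.20 and 0.22, and the share of calls that were higher in the young went from 51.9% to 72.4% and from 53.5% to 77.3%.

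Against adult TOM+ cDC2, Tpi1, Pkm, Ldha, G6pdx, Pgd, Pgls and Tkt of glycolysis, lactate formation and the pentose phosphate pathway were higher in both young groups. Aldoa and Ldhb passed with a higher level in TOM- DC2 only. For Aldoa the young TOM+ libraries also lay above all adult ones, and the difference between the young groups did not pass. With counts of reads that have a single place in the genome (STAR), Pgam1 passed narrowly in TOM+ cDC2 only. With RSEM expected counts, which divide reads among gene copies, Gapdh, Pgk1, Pgam1 and Eno1 were higher in both young groups. Of the 3 PFKFB members, whose enzymes set the level of fructose 2,6-bisphosphate, 2 were lower. The largest differences were the higher Tpi1 and the lower Pfkfb3 of young cells. Summed over all 35 genes, the level was 6522 to 6789 TPM in young TOM+ cDC2, 6570 to 6711 TPM in young TOM- DC2 and 4446 to 4587 TPM in adults, so that the young libraries lay above all adult ones. The sum was dominated by Taldo1, Ldha and Pkm, which together took 51.1% to 53.7% of it in every library.

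A gene is said to pass at a Benjamini-Hochberg adjusted p (padj) under 0.05 in edgeR's quasi-likelihood test over all genes tested. Between young and adult TOM+ cDC2, 12 members passed with a higher level in the young, where 21.0% of all genes tested did, and 2 passed with a higher level in adults, where 19.5% of all genes did. With a log2FC beyond 1 in either direction as well, 2 members passed, against 12.8% of all genes. Between young TOM- DC2 and adult TOM+ cDC2, 14 members were higher in the young (19.4% of all genes) and 2 in adults (16.9% of all genes), and 3 also passed the fold threshold (11.3% of all genes). The median log2FC of the 34 members was 0.25 and 0.26 in these comparisons. Both comparisons use the same 3 adult libraries. Neither count is a test of the list against other genes.

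**Figure D1:**
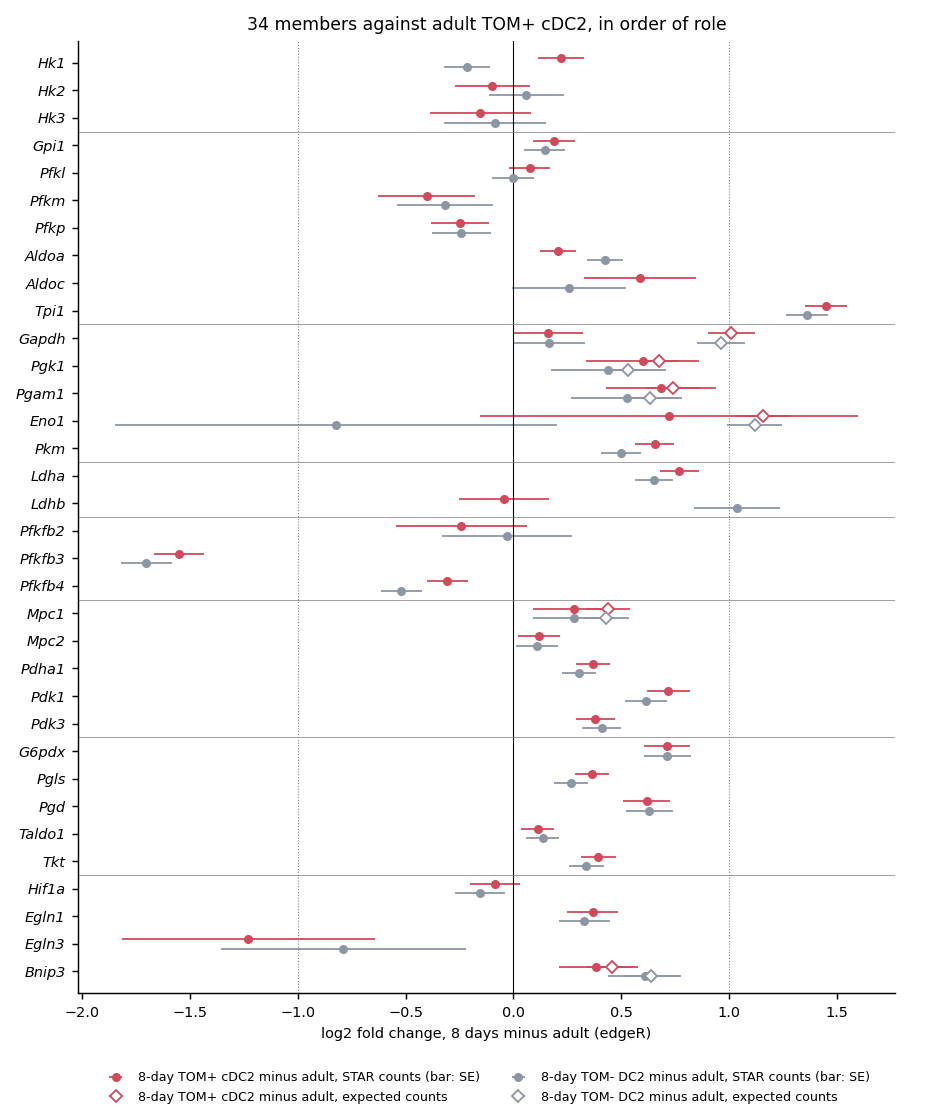
Log2 fold change of the 34 tested members in young TOM+ cDC2 (red) and young TOM- DC2 (grey) minus adult TOM+ cDC2, ordered by role with thin lines between roles; bars are standard errors from edgeR, filled points use STAR counts, and open diamonds give the fit on RSEM expected counts for 6 members with few STAR counts. Tpi1 lies farthest to the right and Pfkfb3 farthest to the left of all members fitted on STAR counts in both comparisons.

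Between young TOM+ cDC2 and young TOM- DC2 the same genes differed little. No member passed with a higher level in TOM+ cDC2, as 0.125% of all genes did, and 1 member, Ldhb, passed with a higher level in TOM- DC2, as 1.47% of all genes did. Ldhb was also the only one with a log2FC beyond 1, which 1.18% of all genes passed. The median log2FC of the members was 0.04, against 0.00 for all genes. The standard error of this log2FC was 0.09 for Pkm and 0.11 for G6pdx, so a difference of that size was not detectable with 3 libraries in each group.

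Other gene groups differed with age in the same libraries. Their counts are to be read against the shares of all genes tested. These were 21.0% higher and 19.5% lower in young TOM+ cDC2 than in adults, and 19.4% and 16.9% in young TOM- DC2. Of 10 cDC2 markers, 2 passed with a higher and 7 with a lower level in each young group. Of 15 proliferation markers, 14 passed with a higher level in young TOM+ cDC2 and 14 in young TOM- DC2, with summed levels of 2262 to 2343 TPM and 2078 to 2153 TPM against 890 to 1101 TPM in adults. Of 5 markers of ESAM-high cDC2, 4 were lower in each young group, with summed levels of 210 to 326 TPM and 294 to 406 TPM against 654 to 690 TPM in adults. Of 6 markers of ESAM-low cDC2, 4 were higher and 2 lower in young TOM+ cDC2 and 1 was higher and 2 lower in young TOM- DC2, with summed levels of 547 to 592 TPM and 418 to 486 TPM against 575 to 885 TPM in adults. Of 8 macrophage markers, 5 were higher in young TOM- DC2 than in adults. In young TOM+ cDC2 1 was higher and 1 lower, which is not above the shares of all genes. Of 5 markers of sex, 4 were tested, and these 4 passed with a lower level in each young group. Among them Ddx3y, on the Y chromosome, was at 53.8 to 68.8 TPM in young libraries and 99.7 to 123 TPM in adults. No marker of the proliferation, cDC2 subset and macrophage lists was at 0 in all libraries, and the part of cycling cells, of cDC2 subsets, of other cells and of sex in the results on glycolytic genes was not tested. In these bulk samples, fewer cells of a type and less RNA per cell cannot be told apart.

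Phosphorylation of glucose, which traps it in the cell, is the work of the hexokinases. Hk1, the isozyme with the highest TPM, was at 30.3, 29.99 and 28.7 TPM in the 3 libraries of young TOM+ cDC2, at 23.9, 18.9 and 24.2 TPM in young TOM- DC2 and at 24.5, 24.4 and 21.0 TPM in adults. All 3 young TOM+ libraries lay above the 6 others, which overlapped. The log2FC between young TOM+ cDC2 and young TOM- DC2 was 0.44 ± 0.11 (SE) with padj = 0.072. With the replicate number as a block it was 0.44 with padj = 0.034, and it also passed with DESeq2 (padj = 0.011), without the filter on low counts (padj = 0.045) and without adult replicate 3 (padj = 0.041). Against adults, Hk1 did not pass in TOM+ cDC2 (log2FC 0.22, padj = 0.12) or in TOM- DC2 (log2FC -0.22, padj = 0.13). In TOM+ cDC2 it passed without TMM factors (log2FC 0.42, padj = 0.0046) and with limma on both TPM scales (padj = 0.032 and 0.031). In TOM- DC2 it passed, with a lower level than in adults, only without adult replicate 3. Hk2, the inducible isozyme, had group means of 15.5 ± 2.78, 17.6 ± 3.07 and 15.3 ± 1.97 TPM (SD, n = 3, in the order young TOM+ cDC2, young TOM- DC2 and adult, which is kept below). Hk3 was at 3.59, 3.81 and 3.61 TPM, and neither gene passed in any comparison. Hk1 made up 61.0% ± 3.10, 51.0% ± 4.56 and 55.3% ± 1.74 of the summed hexokinase TPM.

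Of the 7 genes that carry glucose 6-phosphate to the triose phosphates, 1 differed strongly with age. Tpi1 encodes triosephosphate isomerase, which interconverts the products of aldolase, and lies at chr6:124810586-124814158 (minus strand, GRCm38.p6). It was at 266, 259 and 291 TPM in young TOM+ cDC2, at 248, 244 and 280 TPM in young TOM- DC2 and at 87.7, 90.7 and 94.3 TPM in adults. Every young library lay far above any adult one, and the young groups overlapped. The log2FC was 1.45 ± 0.10 (SE, padj = 6.0e-07) for TOM+ cDC2 and 1.36 ± 0.10 (padj = 1.4e-06) for TOM- DC2 against adults. Tpi1 passed with both thresholds in each comparison with adults under every alternative that was run.

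Aldoa, the main aldolase, had the highest TPM of these 7 genes. It was at 310, 299 and 306 TPM in young TOM+ cDC2, at 359.5, 372 and 359 TPM in young TOM- DC2 and at 239, 250.03 and 236 TPM in adults. The 3 groups did not overlap, with TOM- DC2 highest and adults lowest. The difference from adults passed in TOM- DC2 (log2FC 0.42 ± 0.08, padj = 0.0016, and 0.48, padj = 0.0014 without TOM- DC2 replicate 1) but not in TOM+ cDC2 (log2FC 0.21 ± 0.08, padj = 0.063). There it passed with the replicate block (log2FC 0.21, padj = 0.031), without TMM factors (log2FC 0.41, padj = 8.8e-04) and with limma on both TPM scales. The difference between the young groups did not pass (log2FC -0.22, padj = 0.36), except with limma on both TPM scales.

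The other 5 genes of the upper part did not pass in any comparison in the test as reported. Gpi1, glucose phosphate isomerase, was at 184 ± 9.90, 183 ± 15.1 and 148 ± 17.2 TPM (log2FC 0.19 and 0.15 against adults, padj = 0.14 and 0.26). It passed in both comparisons with adults without TMM factors, with limma on both TPM scales and without adult replicate 2. Pfkl and Aldoc passed in TOM+ cDC2 against adults only without TMM factors. The phosphofructokinases, which catalyse the committed step, kept to the same order in all groups, with Pfkl at 54.7, 52.9 and 47.4 TPM, Pfkp at 29.3, 29.5 and 30.2 TPM and Pfkm at 2.66, 2.89 and 3.17 TPM. Pfkp passed in both comparisons with adults only with the replicate block (log2FC -0.26, padj = 0.024 for TOM+ cDC2, and log2FC -0.26, padj = 0.027 for TOM- DC2). In TOM- DC2 it also passed without TOM- DC2 replicate 3. Pfkl held 63.1% ± 2.29, 62.1% ± 2.60 and 58.8% ± 2.63 of the phosphofructokinase TPM. Aldoc, the brain-type aldolase, was at 4.61, 3.99 and 2.96 TPM.

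Several genes of the lower part have copies that share their sequence, and the 2 kinds of deposited count treat these differently. STAR counted only reads with a single place in the genome, while RSEM divided reads among the transcripts they match. In all libraries the STAR count was under 50% of the RSEM expected count for 6 members, Gapdh, Pgk1, Pgam1, Eno1, Mpc1 and Bnip3, and over 90% for 19. The share was 0% to 0.189% for Eno1, 1.29% to 1.78% for Pgam1, 2.98% to 5.24% for Pgk1 and 3.25% to 5.21% for Mpc1. Eno1 thus rested on 0 to 4 STAR reads per library, where RSEM assigned it a mean of 3781 expected counts in young TOM+ cDC2. For Gapdh the share itself differed with age, with means of 13.7% in young TOM+ cDC2, 14.2% in young TOM- DC2 and 25.5% in adults. For these 6 members the fit on RSEM expected counts is given beside that on STAR counts, and levels and differences are uncertain as far as reads of copies were placed wrongly.

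**Figure D2:**
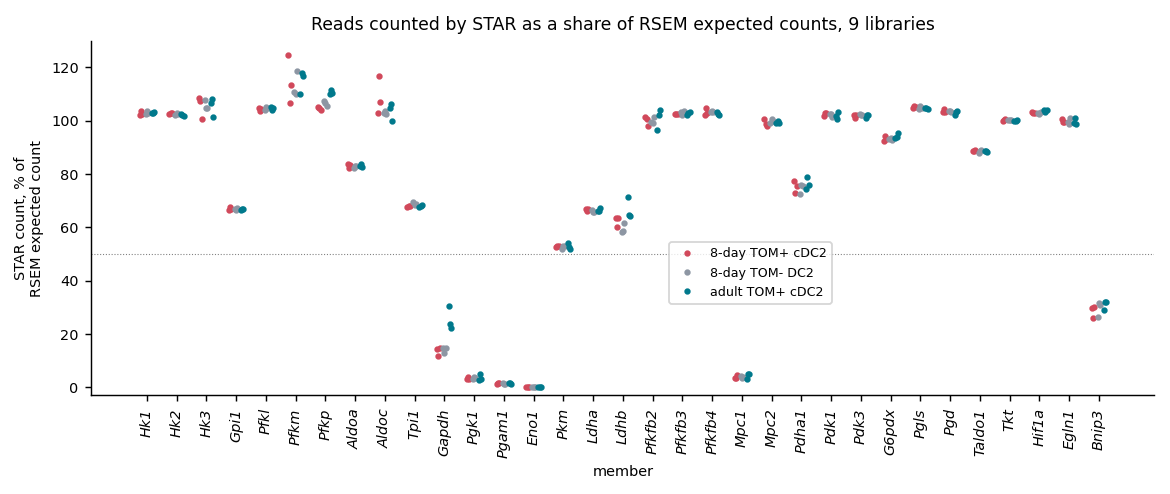
STAR counts as a percentage of RSEM expected counts for 33 members (Fbp1 and Egln3, with almost no reads, are left out), 1 point per library coloured by group, with the dotted line at 50%. Most members lie near 100%, 6 lie under 50% in every library, and adults lie above the young libraries for Gapdh.

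With expected counts, all of these 6 members were higher in young than in adult cells. Gapdh, which makes NADH in the first step after the trioses, was at 72.9, 77.3 and 74.9 TPM in young TOM+ cDC2, at 68.8, 75.7 and 77.0 TPM in young TOM- DC2 and at 29.9, 36.6 and 33.2 TPM in adults. The young libraries lay far above the adult ones and overlapped with each other. Its log2FC was 1.01 ± 0.11 (padj = 2.7e-05) and 0.96 ± 0.11 (padj = 4.9e-05) with expected counts, but 0.16 (padj = 0.47) and 0.17 (padj = 0.46) with STAR counts. Pgk1, phosphoglycerate kinase, which makes the first ATP, was at 147 ± 6.45, 136 ± 4.55 and 82.3 ± 5.28 TPM, with a log2FC of 0.68 (padj = 1.0e-04) and 0.53 (padj = 7.0e-04) with expected counts. With STAR counts it was 0.60 (padj = 0.091) and 0.44 (padj = 0.22).

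Pgam1, phosphoglycerate mutase, was at 261 ± 16.6, 248 ± 24.6 and 140.2 ± 14.6 TPM. With expected counts the log2FC was 0.74 (padj = 6.2e-04) for TOM+ cDC2 and 0.63 (padj = 0.0020) for TOM- DC2 against adults. With STAR counts it was 0.69 and passed narrowly for TOM+ cDC2 (padj = 0.049), and 0.53 without passing for TOM- DC2 (padj = 0.13). The STAR call was lost in 7 of 9 fits that left out 1 library each. The fits in which it held were those without TOM+ cDC2 replicate 1 and without adult replicate 2.

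Eno1, the ubiquitous enolase, was at 192, 201 and 201 TPM in young TOM+ cDC2, at 198, 206 and 187 TPM in young TOM- DC2 and at 88.8, 86.0 and 63.9 TPM in adults. The young and adult libraries did not overlap. With expected counts the log2FC was 1.16 ± 0.13 (padj = 2.7e-05) and 1.12 ± 0.13 (padj = 4.4e-05), whereas the few STAR reads gave 0.72 (padj = 0.55) and -0.82 (padj = 0.56). Most enolase reads were assigned by RSEM to Eno1b, a gene of nearly the same sequence, at 1400 ± 114, 1296 ± 128 and 649 ± 4.54 TPM, which was higher in the young by a log2FC of 0.95 (padj = 8.6e-06) and 0.81 (padj = 3.4e-05). The sum of Eno1 and Eno1b was 1598 ± 111, 1493 ± 136 and 729 ± 12.4 TPM. Reads of these genes cannot be told apart, so the sum is the safer level.

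Pkm, pyruvate kinase, which makes the last ATP of the pathway, was the most abundant of the lower enzymes. It was at 779.8, 769 and 818 TPM in young TOM+ cDC2, at 746, 705 and 732 TPM in young TOM- DC2 and at 455, 491 and 431 TPM in adults. The 3 groups did not overlap, with young TOM+ cDC2 highest. The log2FC against adults was 0.65 ± 0.09 (padj = 1.3e-04) and 0.50 ± 0.09 (padj = 0.0011), and that between the young groups was 0.16 (padj = 0.69).

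Lactate dehydrogenase is made of A chains, which favour lactate formation, and B chains. Ldha, the A chain gene, lies at chr7:46842274-46855627 (plus strand) and was the second most abundant member. It was at 1175, 1199 and 1257 TPM in young TOM+ cDC2, at 1097, 1145 and 1208 TPM in young TOM- DC2 and at 618, 674 and 665 TPM in adults. Young libraries all lay above adult ones and overlapped with each other. The log2FC was 0.77 ± 0.09 (padj = 3.3e-05) and 0.65 ± 0.09 (padj = 1.4e-04) against adults, and 0.12 (padj = 0.81) between the young groups.

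Ldhb, the B chain gene at chr6:142490249-142507957 (minus strand), was the only member that differed between the young groups. It was at 7.41, 6.44 and 7.57 TPM in young TOM+ cDC2, at 19.8, 13.97 and 15.5 TPM in young TOM- DC2 and at 4.54, 6.91 and 7.72 TPM in adults. All 3 TOM- libraries lay above the 6 TOM+ libraries, whose ages overlapped. The log2FC was -1.08 ± 0.19 (padj = 0.012) for young TOM+ cDC2 minus young TOM- DC2, 1.04 ± 0.20 (padj = 0.0016) for young TOM- DC2 minus adults and -0.04 (padj = 0.89) for young TOM+ cDC2 minus adults. It rested on 30 to 163 STAR reads per library, and expected counts gave -1.16 (padj = 0.0068) for the young groups. Ldhb remained a small part of the family, at 0.587% ± 0.0472, 1.41% ± 0.309 and 0.964% ± 0.214 of the lactate dehydrogenase TPM.

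The Ldhb call between the young groups was lost without TOM+ cDC2 replicate 2 (padj = 0.071) and without TOM- DC2 replicate 3 (padj = 0.061). Without TOM- DC2 replicate 1, which held the red cell markers, the log2FC was -0.998, just short of the fold threshold, and still passed (padj = 0.047). Against adults, Ldhb passed without that library as well (log2FC 0.95, padj = 0.0062). Some genes listed here as markers of other cells were also higher in TOM- DC2. Among them were 3 of the 7 tested markers of type 3 innate lymphoid cells (1.47% of all genes were higher there). Examples are Il1r1 (0.24 against 3.91 TPM) and Gata3 (0.177 against 2.30 TPM), while Il22 was at 0 in all libraries. The summed level of the 8 genes of that list was 149.5 to 187 TPM in TOM+ and 217 to 286 TPM in TOM- young libraries and 283 to 338 TPM in adults, most of it Kit. Which cells made these transcripts was not tested, nor was their part in the Ldhb result.

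**Figure D3:**
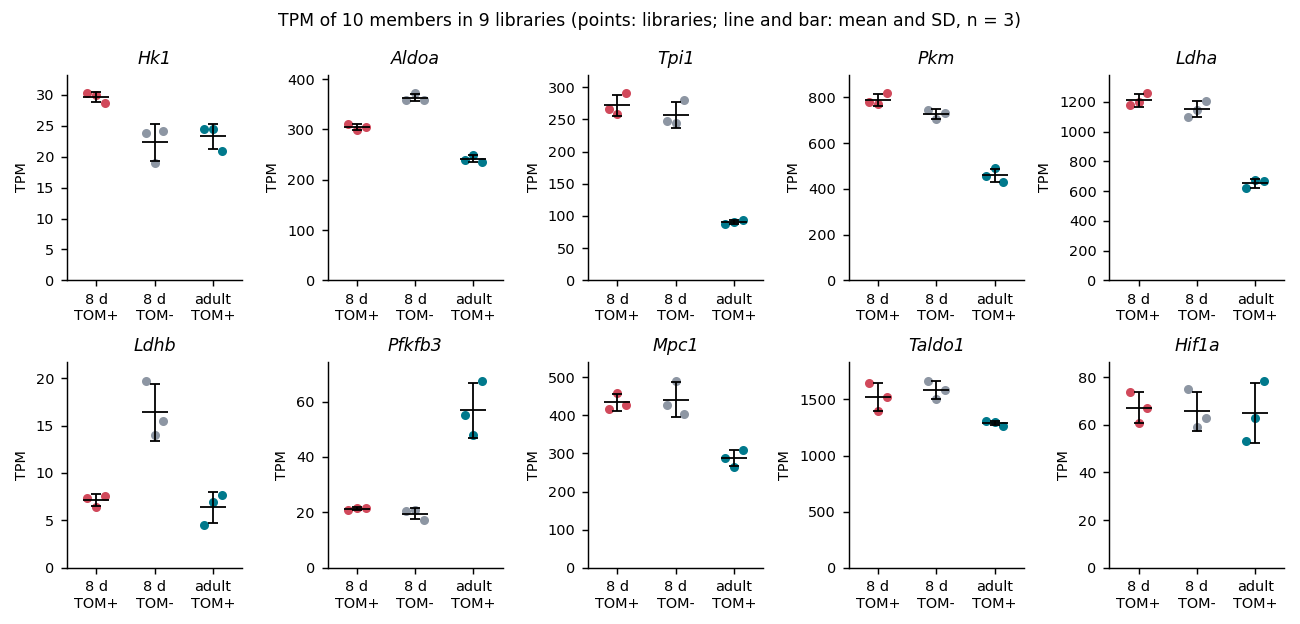
TPM of 10 members in the 9 libraries, 1 panel per gene with its own axis from 0; points are libraries, the line and bar the mean and SD (n = 3). Young libraries lie above adult ones for Aldoa, Tpi1, Pkm, Ldha, Mpc1 and Taldo1 and below them for Pfkfb3, and Ldhb is high only in young TOM- DC2.

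The PFKFB enzymes make and break fructose 2,6-bisphosphate, the strongest activator of phosphofructokinase. Pfkfb3, whose product mostly makes it, lies at chr2:11471430-11554071 (minus strand). It was at 20.7, 21.5 and 21.7 TPM in young TOM+ cDC2, at 20.3, 21.0 and 17.3 TPM in young TOM- DC2 and at 55.3, 47.9 and 67.6 TPM in adults. Adults lay above all young libraries, which overlapped. The log2FC was -1.55 ± 0.12 (padj = 1.4e-06) and -1.70 ± 0.12 (padj = 1.1e-06), opposite in sign to that of Tpi1, Ldha and Pkm. Pfkfb4 was lower in the young as well, at 15.4 ± 1.87, 13.6 ± 1.18 and 17.5 ± 0.676 TPM (log2FC -0.31, padj = 0.022, and -0.52, padj = 0.0012). In TOM+ cDC2 this was lost without TMM factors, on the TPM scale, without young TOM+ cDC2 replicate 2 and without adult replicate 1. Pfkfb2 was at 1.43, 1.69 and 1.54 TPM and did not pass.

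Pfkfb3 made up 56.0% ± 3.61 and 56.2% ± 2.52 of the PFKFB TPM in young cells and 74.7% ± 2.37 in adults. Enolase was another family whose makeup differed with age once genes outside the list were added, which was done after the values were seen. Eno3, the muscle-type enolase, was at 41.8 ± 10.9, 55.8 ± 8.50 and 156 ± 23.1 TPM and was lower in the young by edgeR (log2FC -2.04, padj = 1.3e-06, and -1.64, padj = 7.2e-06), on 512 to 2593 STAR reads per library. It took 2.54% ± 0.581, 3.60% ± 0.472 and 17.5% ± 2.34 of the TPM of Eno1, Eno1b, Eno2 and Eno3. With expected counts, Eno1 and Eno3 thus differed with age in opposite directions.

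**Figure D4:**
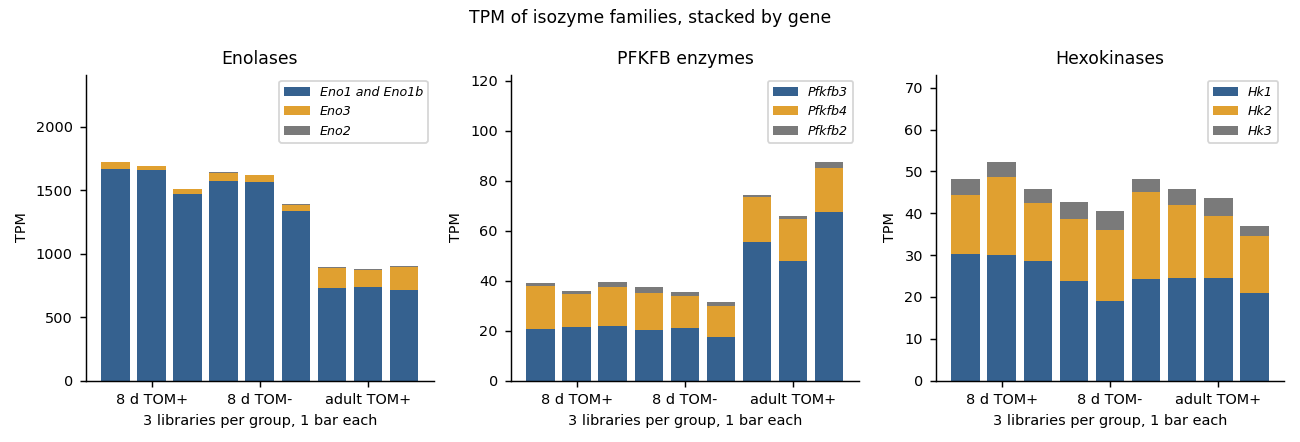
Stacked TPM of enolase genes and of the PFKFB (Pfkfb2, Pfkfb3, Pfkfb4) and hexokinase members in the 9 libraries, 1 bar per library with its own axis per family. Enolase totals are lower in adults while the Eno3 band is taller, the Pfkfb3 band is taller in adults, and hexokinase bars overlap between groups.

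The promoters of Tpi1, Pfkfb3 and Ldhb, the members that passed the fold threshold, and of Ldha are shown because these genes differed in different directions. Each run is the 250 bases before an annotated start in RefSeq (GRCm38.p6), read 5′ to 3′ on the gene's strand, and capitals mark ACGTG on either strand, the core that HIF and E-box proteins share, including the palindrome CACGTG. Ldha and Pfkfb3 each have another annotated start, and the counts per gene do not tell starts apart. The Tpi1 run covers chr6:124814159-124814408 (minus strand), that of Ldha chr7:46845554-46845803 (plus strand), that of Ldhb chr6:142507958-142508207 (minus strand) and that of Pfkfb3 chr2:11502091-11502340 (minus strand).
Tpi1: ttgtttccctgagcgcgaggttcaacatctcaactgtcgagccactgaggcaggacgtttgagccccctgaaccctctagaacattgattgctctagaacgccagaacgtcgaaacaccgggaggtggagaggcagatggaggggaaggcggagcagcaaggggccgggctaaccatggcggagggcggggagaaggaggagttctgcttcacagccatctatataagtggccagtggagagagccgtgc
Ldha: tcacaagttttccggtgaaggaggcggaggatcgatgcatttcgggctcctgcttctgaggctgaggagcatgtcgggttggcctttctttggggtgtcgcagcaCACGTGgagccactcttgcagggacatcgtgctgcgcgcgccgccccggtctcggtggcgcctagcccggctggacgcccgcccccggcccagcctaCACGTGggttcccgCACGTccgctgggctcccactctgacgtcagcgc
Ldhb: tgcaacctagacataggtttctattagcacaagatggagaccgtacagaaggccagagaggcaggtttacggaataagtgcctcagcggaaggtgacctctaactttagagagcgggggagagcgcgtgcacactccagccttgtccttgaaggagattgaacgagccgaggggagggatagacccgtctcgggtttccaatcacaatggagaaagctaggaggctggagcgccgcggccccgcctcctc
Pfkfb3: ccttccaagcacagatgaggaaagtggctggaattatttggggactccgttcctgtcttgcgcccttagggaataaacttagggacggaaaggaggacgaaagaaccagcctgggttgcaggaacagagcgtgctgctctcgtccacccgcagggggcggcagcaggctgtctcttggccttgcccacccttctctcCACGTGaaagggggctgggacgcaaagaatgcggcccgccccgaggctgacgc
The Ldha run holds 3 such places, beginning 145, 48 and 34 bases before the start, and 2 of them are CACGTG. The Pfkfb3 run holds 1, a CACGTG that begins 53 bases before the start, while ACGTG does not occur in the Tpi1 and Ldhb runs. The same stretch before the other start of Ldha (chr7:46846832-46847081) holds no ACGTG, and that before the other start of Pfkfb3 (chr2:11553930-11554179) holds 1, which begins 60 bases before the start and is no CACGTG.

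All 35 members matched 52 RefSeq promoters of 300 bases (250 before and 50 after a start). ACGTG on either strand stood in 44.2% of these, against 19.6% of all 32851 promoters. The related core GCGTG stood in 59.6% of member promoters and in 32.4% of all, and CACGTG, a subset of ACGTG, in 11.5% and 7.15%. GCGTG is not marked in the runs above. Over the 300 bases it occurred 1 time for Ldhb, 0 times for Tpi1 and 2 times at each start of Ldha. For Pfkfb3 it occurred 2 times at the start shown and 0 times at the other. These shares describe letters only. Base composition was not matched, and several starts of a gene can overlap.

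Pyruvate enters mitochondria through the carrier built of MPC1 and MPC2 and is turned into acetyl-CoA by pyruvate dehydrogenase, which the PDK kinases switch off. Mpc1 was at 417, 459 and 427 TPM in young TOM+ cDC2, at 429, 491.5 and 405 TPM in young TOM- DC2 and at 289, 265 and 309 TPM in adults. Young libraries all lay above adult ones. The difference passed with expected counts (log2FC 0.44, padj = 0.0053, and 0.43, padj = 0.0065) but not with the 60 to 207 STAR reads (0.28, padj = 0.27, and 0.28, padj = 0.28). Mpc2 was at 166 ± 8.16, 167 ± 9.94 and 140.1 ± 10.6 TPM and did not pass in the test as reported. It passed in both comparisons with adults without TMM factors and with limma on both TPM scales. Pdha1, a catalytic subunit of the dehydrogenase, was higher in the young, at 64.8 ± 3.72, 64.0 ± 4.55 and 45.5 ± 3.70 TPM (log2FC 0.37, padj = 0.0027, and 0.30, padj = 0.0096).

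Of the kinases that oppose it, the members Pdk1 and Pdk3 were higher in the young too. Pdk2, outside the members and named after its values were seen, went the other way, at 7.73, 8.56 and 9.05 TPM. It passed with a lower level in young TOM+ cDC2 than in adults (log2FC -0.37, padj = 0.037) but not in TOM- DC2 (log2FC -0.26, padj = 0.14). Pdk1 was at 14.4 ± 1.90, 13.7 ± 0.921 and 8.02 ± 0.0265 TPM (log2FC 0.72, padj = 1.1e-04, and 0.61, padj = 4.3e-04). Pdk3, the more abundant, was at 115 ± 2.83, 119.8 ± 0.526 and 81.3 ± 8.44 TPM (log2FC 0.38, padj = 0.0058, and 0.41, padj = 0.0043) and made up 89.0%, 89.7% and 90.96% of the summed TPM of Pdk1 and Pdk3. None of the 5 genes of pyruvate entry passed between the young groups.

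In the pentose phosphate pathway, the enzymes of the oxidative branch, which make NADPH, were all higher in the young. G6pdx, the first and rate-limiting enzyme, was at 129 ± 18.5, 132 ± 12.4 and 71.1 ± 7.85 TPM (log2FC 0.71 ± 0.11, padj = 2.2e-04, and 0.71 ± 0.11, padj = 2.6e-04). Pgd, the second NADPH-forming enzyme, was at 89.7 ± 4.97, 92.6 ± 4.48 and 53.8 ± 6.22 TPM (log2FC 0.62, padj = 7.1e-04, and 0.63, padj = 7.4e-04). Pgls, the lactonase between them, was at 153 ± 6.49, 147 ± 8.45 and 109.7 ± 8.81 TPM (log2FC 0.36, padj = 0.0031, and 0.27, padj = 0.021). The Pgls call in TOM- DC2 was lost without TOM+ cDC2 replicate 3, TOM- DC2 replicate 3 or adult replicate 1 (padj = 0.052, 0.11 and 0.082).

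The non-oxidative branch, which exchanges carbon with glycolysis, differed less. Tkt, transketolase, was at 259 ± 9.97, 255 ± 14.1 and 181 ± 14.8 TPM (log2FC 0.39, padj = 0.0018, and 0.34, padj = 0.0055). Taldo1, transaldolase, had the highest TPM of all 35 members, at 1645, 1398 and 1525 TPM in young TOM+ cDC2, at 1668, 1505 and 1581 TPM in young TOM- DC2 and at 1303, 1299 and 1266 TPM in adults. On the TPM scale young libraries lay above adult ones, but after TMM scaling the log2FC was 0.11 (padj = 0.26) and 0.14 (padj = 0.18) and did not pass. It passed in both comparisons without TMM factors and on the TPM scale. The oxidative enzymes passed in both comparisons under all scalings.

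Fbp1, fructose bisphosphatase of gluconeogenesis, had 0 reads in all 9 libraries. A count of 0 allows up to 3 counts, or 0.132 to 0.235 CPM (counts scaled by the gene counts of the library), for counting error only. Of the 6 other gluconeogenic genes listed, 3 were tested and 1, Pck2, named after its values were seen, passed in 1 comparison (9.42 ± 0.752 TPM in young TOM+ cDC2 against 6.55 ± 0.820 TPM in adults, log2FC 0.40, padj = 0.037).

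Of the 4 genes of the response to low oxygen, Egln1 and Bnip3 passed in at least 1 comparison and Hif1a and Egln3 in none. Hif1a, the regulated subunit of HIF-1, was at 74.0, 60.9 and 66.9 TPM in young TOM+ cDC2, at 75.0, 59.3 and 63.0 TPM in young TOM- DC2 and at 53.4, 63.1 and 78.6 TPM in adults. The groups overlapped fully, with log2FC of -0.09 (padj = 0.59) and -0.16 (padj = 0.31), whose sign turned without TMM factors and on the TPM scale. HIF-1 is regulated mainly through the stability of its protein, which was not measured.

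Egln1, the prolyl hydroxylase that marks HIF for destruction, was at 31.4 ± 4.54, 31.3 ± 1.42 and 22.4 ± 1.93 TPM and passed narrowly (log2FC 0.37, padj = 0.026, and 0.33, padj = 0.048). The call in TOM+ cDC2 was lost in 4 of 9 fits that left out 1 library, those without TOM+ cDC2 replicates 2 or 3 or adult replicates 1 or 2. The call in TOM- DC2 was lost with expected counts (padj = 0.080) and with DESeq2 (padj = 0.056), and in all such fits but those without TOM+ cDC2 replicates 1 or 2. Egln3, its hypoxia-inducible relative, was near the detection limit, at 0.157, 0.2 and 0.33 TPM. Bnip3, a mitophagy receptor induced by HIF, was at 22.5 ± 0.961, 26.2 ± 2.51 and 14.7 ± 1.35 TPM. It passed in TOM- DC2 with STAR counts (log2FC 0.61, padj = 0.015, lost without TOM- DC2 replicate 2 at padj = 0.070 and kept without replicate 1 at padj = 0.012) and in both comparisons with expected counts (log2FC 0.46, padj = 0.011, and 0.64, padj = 0.0016).

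With RSEM expected counts for all genes, 17 members were higher in young TOM+ cDC2 than in adults (20.0% of 14532 genes) and 2 were lower (20.7%), and 18 were higher in young TOM- DC2 (18.4%) and 2 lower (18.1%). A log2FC beyond 1 was passed by 4 members in each comparison (12.9% and 11.4% of all genes). In TOM+ cDC2 these were Tpi1, Pfkfb3, Eno1 and Gapdh, and in TOM- DC2 Tpi1, Pfkfb3, Eno1 and Ldhb. All 14 members that passed with STAR counts in TOM+ cDC2 passed here as well, as did 15 of 16 in TOM- DC2, where Egln1 was the exception.

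Other genes of the same pathways were taken from a list of 92, of which 77 were tested. Between young and adult TOM+ cDC2, 21 were higher and 12 lower in the young, and 10 of these had a log2FC beyond 1. For young TOM- DC2 the numbers were 17, 10 and 11. Over all genes tested, 21.0% were higher, 19.5% lower and 12.8% beyond the fold threshold in the first comparison and 19.4%, 16.9% and 11.3% in the second, so these counts lay near the background. The median log2FC of the 77 genes was 0.17 and 0.12.

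Among the transporters, 4 of 12 tested were higher and 2 lower in each young group, to be read against the same shares of all genes. Slc16a1, a monocarboxylate carrier for lactate and pyruvate, was at 9.22 ± 2.24, 6.53 ± 0.566 and 3.29 ± 0.504 TPM (log2FC 1.37, padj = 1.7e-04, and 0.81, padj = 0.0068). Slc2a6, a hexose transporter of the lysosome, was at 26.4 ± 3.62, 24.2 ± 2.71 and 53.0 ± 8.43 TPM (log2FC -1.13, padj = 7.5e-05, and -1.30, padj = 3.6e-05).

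Among other glycolytic isozymes, Pgam2, the muscle-type mutase, followed Ldhb in being highest in TOM- DC2, at 5.40 ± 1.08, 16.6 ± 1.53 and 2.92 ± 0.635 TPM (log2FC between the young groups -1.30, padj = 0.0019, and -1.29, padj = 0.0070 without TOM- DC2 replicate 1). Eno2, the neuronal enolase, was at 1.16 ± 0.429, 1.84 ± 0.427 and 6.83 ± 2.57 TPM (log2FC -2.73, padj = 2.9e-05, and -1.89, padj = 3.4e-04). H6pd, which starts the pentose pathway in the endoplasmic reticulum, was at 7.25 ± 0.567, 7.69 ± 1.16 and 3.38 ± 0.374 TPM (log2FC 0.96, padj = 8.9e-05, and 1.03, padj = 6.7e-05).

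Of 24 tested genes known as HIF targets, 7 were higher and 7 lower in young than in adult TOM+ cDC2, and 5 were higher and 5 lower in young TOM- DC2, to be read against the same shares. Plin2, which coats lipid droplets, was higher in the young, at 113 ± 5.72, 108 ± 7.61 and 24.8 ± 0.708 TPM (log2FC 2.05, padj = 1.7e-08, and 1.96, padj = 2.5e-08). Ankrd37 was at 24.1 ± 5.18, 27.3 ± 4.64 and 8.14 ± 2.43 TPM (log2FC 1.33, padj = 0.0012, and 1.47, padj = 6.8e-04). Zfp395 was at 2.92, 2.79 and 0.627 TPM (log2FC 2.03 and 1.99, padj = 6.5e-05 and 9.6e-05).

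Among those lower in the young, Ndrg1 was at 7.77 ± 1.45, 10.7 ± 1.69 and 37.0 ± 1.73 TPM (log2FC -2.37, padj = 6.0e-07, and -1.96, padj = 2.6e-06). Vegfa, the vascular growth factor, was at 74.4 ± 10.1, 87.9 ± 13.2 and 156 ± 15.9 TPM (log2FC -1.20, padj = 7.2e-05, and -0.99, padj = 3.5e-04). Epas1, which encodes HIF-2 alpha, was listed at 0.257, 0.21 and 0.04 TPM and passed (padj = 0.0067 and 0.014) on 8 to 24 reads in young libraries and 0 to 2 in adults.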

How the data were processed

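Libraries were made by the authors from sorted cells by full-length amplification (SMART-seq v4, which does not mark strand), and reads were mapped to mm10 with STAR and quantified with RSEM, per the labels and the submitters' processing notes. Versions of both are not given in the sources used here. The deposited counts are whole reads per gene by STAR (the column without strand). The authors' RSEM tables hold expected counts, which were rounded to whole numbers here, TPM, and effective lengths, used for isozyme shares. Reads assigned to no gene, 26.1% to 31.6% of each library, were left out.

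Tests covered genes whose count averaged 1 or more across the 9 libraries and were run with edgeR 4.0.16 (quasi-likelihood test, TMM, R 4.3.3), all 3 groups in 1 fit, with Benjamini-Hochberg adjustment over all genes. The design took no covariate. Alternatives used DESeq2 1.42.0, limma 3.58.1 on log2(TPM + 1) and log2(TPM + 0.1), other scalings and filters, expected counts, only the groups compared, a replicate block, and fits without each library. The fit was tested on simulated data. The deposited names give young libraries of both sorts the numbers 81, 91 and 92, and adult libraries 91, 92 and 95. What the number marks is not stated. Deviations from the group means correlated at 0.50, 0.18 and 0.33 between young libraries of the same number, and the block pairs these. For number 91 this was no higher than between TOM+ 92 and TOM- 91 (0.19), so the pairing is uncertain. Adults were left out of the block.

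Values in every library are given for members that passed both thresholds in a comparison and for the most abundant member of each role, and also for Gapdh and Eno1. Other pathway genes are named where they passed both thresholds. Some genes that are part of these lists are not reported here by name. The members and lists were chosen with earlier results of these data known.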

Additional observations from a re-analysis of the deposited data

How the results depend on the processing

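Between young and adult TOM+ cDC2, 14 members passed, against 22 with library size only and 23 on each TPM scale (limma), and leaving out 1 library gave 11 to 15. With a log2FC beyond 1, 2 members passed, against 4 with expected counts and on each TPM scale. For young TOM- DC2 against adults these numbers were 16 (20 with library size only, 24 on each TPM scale, 14 to 17 without 1 library) and 3, the latter 5 on each TPM scale and 2 to 3 without 1 library. Between the young groups 1 member passed, and 2 with DESeq2, without the low count filter, on each TPM scale and with the replicate block, while leaving out 1 library gave 0 to 2, and 0 to 1 beyond the fold threshold. On the TPM scales the share of calls higher in the young was 67.4% and 67.9% (TOM+ cDC2), and 73.0% and 73.9% (TOM- DC2). The replicate block changed no call of members other than those of Hk1, Aldoa and Pfkp. The cause of these changes was not tested.

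Some values changed sign. With library size only, log2(TPM + 1) and log2(TPM + 0.1), Ldhb in young minus adult TOM+ cDC2 was 0.15, 0.16 and 0.19, and Hif1a was 0.11, 0.061 and 0.062. For TOM- DC2 minus adults Hif1a was 0.062, 0.026 and 0.027, and Hk1 was 0.0043 with library size only. Eno1 there was 1.12 with expected counts and 1.31 and 1.32 on the TPM scales. Leaving out 1 library gave Ldhb -0.19 to 0.067 and Hif1a -0.20 to 0.047 in young minus adult TOM+ cDC2. Between the young groups, Mpc1 was 0.0007 with DESeq2, 0.0006 without the filter, 0.0072 with expected counts and -0.15 to 0.12 without 1 library, and Taldo1 was -0.045 to 0.018 without 1 library. The Aldoa share from STAR counts per length was 98.65% in TOM- DC2 and 98.5% in adults. Of the other values of these and the passing members, 987 kept direction and side of the threshold, 52 gained a call and 37 lost one. At least 1 scaling also turned the sign of values that did not pass in the test as reported, Hk2 and Hk3 (TOM+ cDC2 minus adults), Hk3, Pfkl and Pfkfb2 (TOM- DC2 minus adults), and Egln1, Gapdh and Mpc2 (between the young groups).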
